A study of Mus musculus with 8 samples.

Results

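The 10 genes described here are BMP ligands, receptors and targets: the ligands Bmp2, Bmp4 and Bmp6, the receptors Bmpr2 and Acvrl1, the inhibitory Smad gene Smad6, and Id1, Id2, Id3 and Id4. They were taken by gene symbol from a table of 22520 protein-coding genes, and all 10 were found as single rows. The table holds mRNA-seq signals of liver ECs in 4 WT (LRP1 f/f; Cdh5-CreER -/-) and 4 LRP1 eKO libraries (LRP1 f/f; Cdh5-CreER +/-), all labelled C57BL/6 and postnatal day 14. The floxed allele is shared by both groups, while the CreER transgene, driven by the promoter of the endothelial gene Cdh5, is present only in LRP1 eKO mice, so that an effect of CreER cannot be told apart from that of losing LRP1. Allele names follow the methods of the study, in which microvascular ECs were isolated with beads against PECAM-1, and the labels call the sample liver microvesicular cells. The labels do not say that the libraries of a group came from separate animals, so that p-values measure the spread between these libraries, which may be technical. How and when CreER was induced in these mice is not given in the sources used here.

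BMPs are secreted ligands that bring together type I receptors, such as ALK1 (the product of Acvrl1), and type II receptors, such as BMPR2. The receptors phosphorylate Smad1, Smad5 and Smad9, which enter the nucleus with Smad4 and switch on target genes. The Id genes are the best known of these targets. Id proteins lack a DNA-binding region and hold back transcription factors of the E protein class, and Smad6 is a target that feeds back to limit the pathway. In the liver, Bmp2 and Bmp6 from sinusoidal ECs are known to keep hepcidin expression up in hepatocytes. LRP1 has been described as an endocytic receptor for BMP4 bound to its modulator BMPER.

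The labelled cell type was checked against marker genes. The summed signal of 10 pan-endothelial markers was 33.4 to 38.4 in WT and 42.2 to 63.8 in LRP1 eKO libraries. Of the 7 markers tested, only Cdh5 and Eng were higher at an adjusted p below 0.05 in limma, and the other 5 were not called. Among all genes tested, 19.0% were higher. Eng, itself a BMP coreceptor, contributed 11.0 to 13.8 to the sum in WT and 19.7 to 27.5 in LRP1 eKO libraries. Cdh5 (VE-cadherin) was between 1.26 and 4.99, Pecam1 was between 1.53 and 3.85, and Tek and Erg were below 1 in every library. The 10 markers of hepatic stellate cells and fibroblasts summed to 1966 to 2285 in WT and 1741 to 2194 in LRP1 eKO libraries, mostly from Col1a1, Col1a2, Col3a1 and Dcn, while Lrat, Reln, Ngfr and Rgs5 were below 1 in every library. Divided by the exon length of each gene, the sums were 7.77 to 14.7 per kb for the endothelial and 224 to 282 per kb for the stellate and fibroblast list over all libraries. Other genes of the endothelial lists were higher, with Eng at 11.0 to 27.5 and Cd34, which other cell types also express, at 107 to 159. The values below are those of the whole preparation. As for single libraries, WT replicate 4 was the farthest from its group's median for 61.7% of all genes tested and LRP1 eKO replicate 2 for 37.2%. In a bulk preparation, fewer cells of a type and less RNA per cell cannot be told apart.

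Id1, Id3 and Bmp4 fell in LRP1 eKO libraries, with log2 fold changes of -0.67, -0.79 and -0.69, and Bmp6 fell by 0.24 on the same scale. Bmpr2 rose by 0.66. Differences of Acvrl1, Smad6 and Id2 did not pass the threshold, which was an adjusted p below 0.05 over all genes tested (limma on log2(signal + 1), Benjamini-Hochberg). Of the 8 genes that passed the filter (4 or more libraries with a signal of 1 or more), 4 fell and 1 rose, or 62.5%, against 41.2% of all 11391 genes tested. Among all genes, 22.2% were lower and 19.0% were higher. The groups did not overlap for 4 of the 8 genes, of which 3 were lower and 1 was higher, against 42.6% of all genes, 22.5% lower and 20.0% higher. None of the 10 genes reached a 2-fold change of signal + 1, which 1.66% of all genes did at the same adjusted p. The median log2 fold change of the 8 genes was -0.11, and that of all genes tested was -0.0095. Bmp2 and Id4 were below the filter and were fitted with all 17959 genes detected in any library, of which 27.3% passed the threshold.

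**Figure D1:**
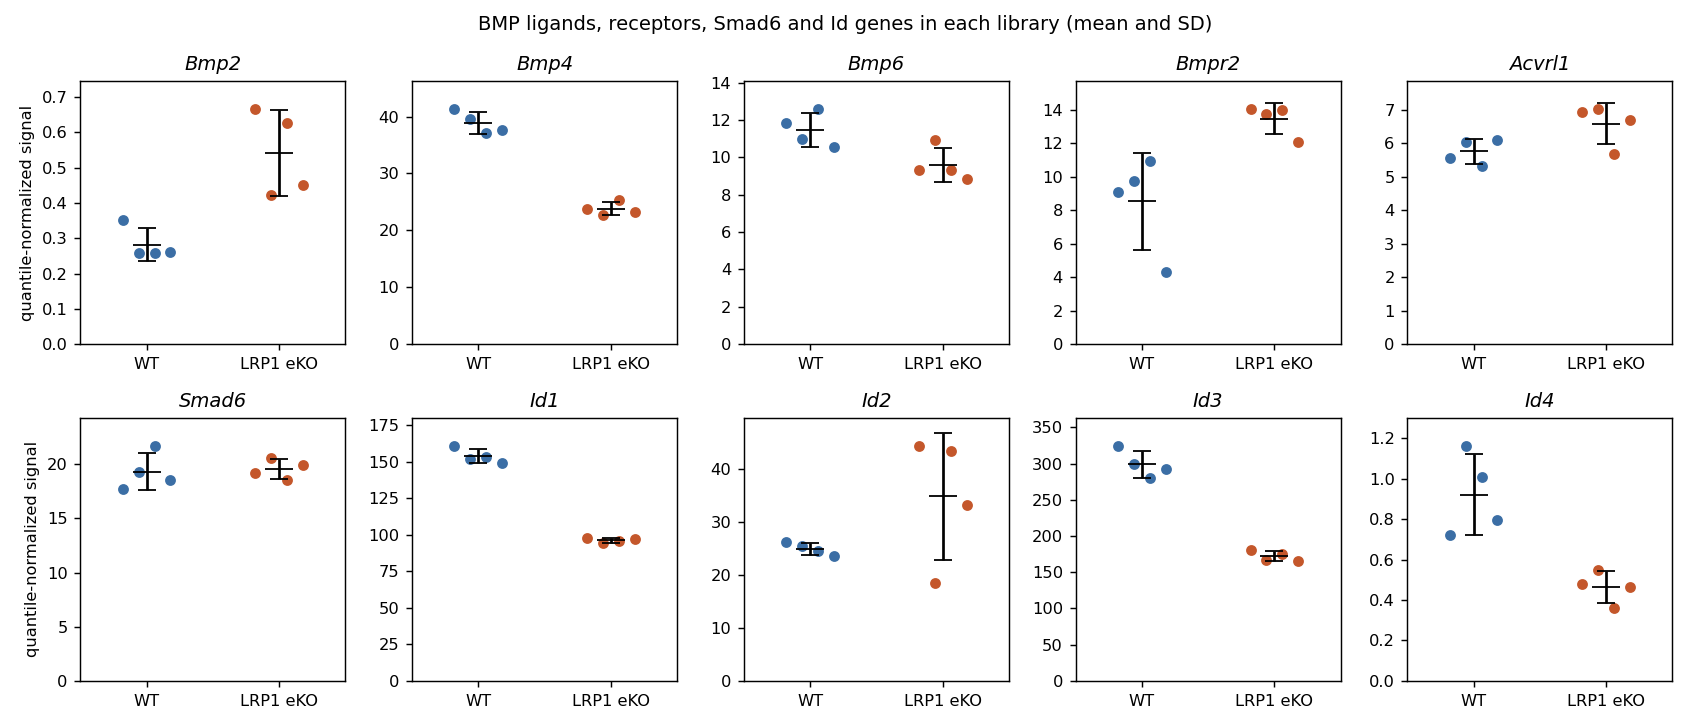
Quantile-normalized signal (vertical axis, from 0) of the 10 genes in WT and LRP1 eKO libraries. Each point is 1 library, and the bars give the mean and SD of 4 libraries. The points of Id1, Id3 and Bmp4 are well apart between the genotypes, whereas those of Smad6 overlap.

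Among the ligands, Bmp4 fell the most. Bmp4 lies on the minus strand of chromosome 14 (GRCm38, 46383520 to 46390669). Its signal was 41.3, 39.6, 37.1 and 37.6 in WT replicates 1 to 4 and 23.8, 22.8, 25.4 and 23.2 in LRP1 eKO replicates 1 to 4. The groups did not overlap, and their difference was several times the spread within either. The mean went from 38.9 ± 1.91 to 23.8 ± 1.15 (mean ± SD, 4 libraries each), which is 61.2% of WT. The log2 fold change was -0.69 (SE 0.052, adjusted p = 9.7e-06), and 2.31% of all genes tested had a lower one. An exact two-sided permutation test gave p = 0.0286, the smallest that 4 libraries against 4 allow.

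Bmp6 (chromosome 13, 38345107 to 38500302) reached signals of 11.8, 11.0, 12.6 and 10.5 in WT replicates 1 to 4, against 9.33, 10.9, 9.35 and 8.84 in LRP1 eKO replicates 1 to 4. Replicate 2 of LRP1 eKO lay within the WT range, so that the groups overlapped. Bmp6 had a log2 fold change of -0.24 (SE 0.075, adjusted p = 0.031; exact permutation test, p = 0.0571). This call did not survive the removal of any library but WT replicates 2 and 4 and LRP1 eKO replicate 2, with log2 fold changes between -0.22 and -0.19 and adjusted p between 0.072 and 0.087.

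Bmp2 (chromosome 2, 133552159 to 133562885) moved the other way at a very low signal. It was listed at 0.351, 0.258, 0.258 and 0.262 in WT and at 0.665, 0.423, 0.627 and 0.450 in LRP1 eKO replicates 1 to 4. All LRP1 eKO values were above all WT values, but 0 of 8 libraries reached a signal of 1. Bmp2 had a log2 fold change of 0.26 (SE 0.057, adjusted p = 0.012 without the filter). Since it is computed after adding 1 to each signal, it was 0.73 with a pseudocount of 0.1 and 0.069 with a pseudocount of 5. The 3 ligands thus differed in direction, with Bmp4 and Bmp6 lower and Bmp2 higher. The macrophage and endothelial marker sums were also higher in LRP1 eKO replicates 1 and 3, in which Bmp2 was highest. With the mean of the tested pan-endothelial genes other than Eng as a covariate, the log2 fold change of Bmp2 was 0.17 (adjusted p = 0.054). With the mean of the tested macrophage markers instead, it was 0.21 (adjusted p = 0.022).

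Of the receptors, Bmpr2 (chromosome 1, 59763400 to 59879014), the type II receptor of BMPs, reached signals of 9.11, 9.73, 11.0 and 4.33 in WT replicates 1 to 4, against 14.0, 13.7, 14.0 and 12.1 in LRP1 eKO. The LRP1 eKO signals were all above those of WT, and WT replicate 4 was far below the other WT libraries. Bmpr2 rose from a mean of 8.53 ± 2.91 to 13.5 ± 0.921 (mean ± SD, 4 libraries each), a log2 fold change of 0.66 (SE 0.21, adjusted p = 0.032). WT replicate 4 set much of this size, since without it the log2 fold change was 0.40 (adjusted p = 0.0024). Without LRP1 eKO replicate 1, 2, 3 or 4, the value was 0.64, 0.65, 0.64 and 0.71, but the adjusted p rose to 0.069, 0.058, 0.069 and 0.052. With the pan-endothelial list as a covariate it was 0.43 (adjusted p = 0.23).

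Acvrl1 (chromosome 15, 101128522 to 101145336) encodes the endothelial type I receptor ALK1. Its signals were 5.57, 6.04, 5.32 and 6.10 in WT and 6.94, 7.01, 5.67 and 6.70 in LRP1 eKO replicates 1 to 4. In 3 of 4 LRP1 eKO libraries Acvrl1 was above every WT library, and in LRP1 eKO replicate 3 it was within their range. The log2 fold change of 0.16 (95% interval -0.00031 to 0.33) did not pass the threshold (adjusted p = 0.099), and was 0.22 without LRP1 eKO replicate 3 (adjusted p = 0.031).

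Smad6 (chromosome 9, 63953076 to 64022059), the feedback inhibitor, was at 17.7, 19.3, 21.7 and 18.5 in WT and at 19.2, 20.6, 18.5 and 19.9 in LRP1 eKO replicates 1 to 4. Its WT range enclosed all LRP1 eKO values. The log2 fold change was 0.021 with a 95% interval from -0.13 to 0.17 (adjusted p = 0.82), and its sign depended on the libraries included. This interval lies above the 95% interval of Id1, from -0.76 to -0.58, and that of Id3, from -0.91 to -0.67, but the difference between these genes was not itself tested.

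Id1 and Id3 showed the clearest change of the Id genes. Id1 lies on chromosome 2 (152736251 to 152737410), and its signal was 161, 152, 153 and 149 in WT and 97.8, 94.1, 95.8 and 97.1 in LRP1 eKO replicates 1 to 4. Within LRP1 eKO, the 4 libraries differed by less than 4 signal units, and no library approached the WT range. The mean went from 154 ± 4.98 to 96.2 ± 1.63 (mean ± SD, 4 libraries each), or to 62.6% of WT. The log2 fold change was -0.67 (SE 0.039, adjusted p = 1.9e-06; exact permutation test, p = 0.0286), and by adjusted p Id1 ranked 71 among the genes tested.

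Id3 (chromosome 4, 136143497 to 136145755) reached signals of 324, 299.9, 280.1 and 293 in WT replicates 1 to 4, against 181, 168, 176 and 166 in LRP1 eKO. It too was lower in every LRP1 eKO library. The mean fell from 299 ± 18.7 to 173 ± 7.08 (mean ± SD, 4 libraries each), or to 57.7% of WT, with a log2 fold change of -0.79 (SE 0.053, adjusted p = 4.8e-06; exact permutation test, p = 0.0286). Fold changes stayed between -0.68 and -0.65 for Id1, between -0.82 and -0.75 for Id3 and between -0.72 and -0.66 for Bmp4 when any 1 library was left out.

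Id4 (chromosome 13, 48261228 to 48266026) was near the lower end of detection. It was at 0.721, 1.16, 1.01 and 0.794 in WT and at 0.479, 0.550, 0.361 and 0.464 in LRP1 eKO replicates 1 to 4. The groups did not overlap, and 2 WT libraries and 0 LRP1 eKO libraries reached a signal of 1. In the fit without the filter, the log2 fold change was -0.39 (SE 0.077, adjusted p = 0.0081). It was -0.85 with a pseudocount of 0.1 and -0.12 with a pseudocount of 5.

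Id2 (chromosome 12, 25093799 to 25097140) did not follow the other Id genes. Its signals were 26.2, 25.4, 24.5 and 23.5 in WT and 44.3, 18.5, 43.3 and 33.1 in LRP1 eKO replicates 1 to 4. LRP1 eKO replicate 2 was below all WT libraries, and the other LRP1 eKO libraries were above all of them. The log2 fold change of 0.39 (SE 0.23) did not pass the threshold (adjusted p = 0.19; exact permutation test, p = 0.257). Without LRP1 eKO replicate 2 it was 0.66 (adjusted p = 0.00090).

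Macrophage markers moved with Id2. The 13 markers of macrophages and Kupffer cells summed to 736, 52.8, 673 and 394 in LRP1 eKO replicates 1 to 4, the same order as that of Id2 in these 4 libraries, and to 113 to 223 in WT libraries. Of the 9 markers tested, 1 rose, where 19.0% of all genes tested did, and 8 did not pass the threshold. Clec4f, which defines Kupffer cells, was listed at 0 in every WT library and between 0.124 and 0.826 in LRP1 eKO libraries, and Timd4 was at most 0.0237 in any library. With the mean of the 9 tested macrophage markers as a covariate, the log2 fold change of Id2 was 0.039 (adjusted p = 0.66). Those of Id1, Id3 and Bmp4 were -0.68, -0.81 and -0.72 in the same fit (adjusted p of 5.0e-06, 1.1e-05 and 1.8e-05). With the pan-endothelial list as a covariate, the latter were -0.69, -0.84 and -0.74.

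**Figure D2:**
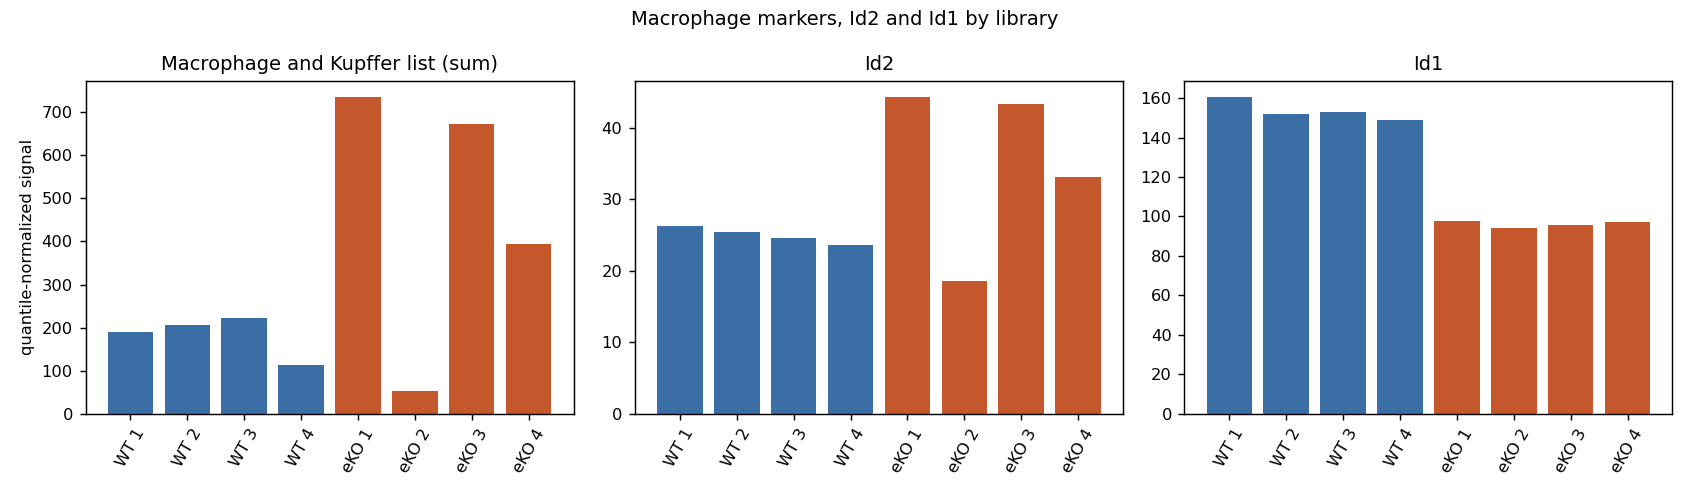
Summed signal of 13 macrophage and Kupffer cell markers (left), signal of Id2 (middle) and signal of Id1 (right) in each library, as bars from 0; blue bars are WT and orange bars LRP1 eKO replicates 1 to 4. LRP1 eKO replicate 2 is lowest of all 8 libraries for the macrophage sum and for Id2, while its Id1 signal of 94.1 is close to that of the other LRP1 eKO libraries.

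Markers of other cell types were also compared between genotypes. The counts of each list below stand beside 22.2% lower and 19.0% higher among all genes tested. Of 6 tested hepatocyte markers, 5 fell and 1, Ass1, rose, and the list of 10 summed to 1537 to 1607 in WT and 753 to 1017 in LRP1 eKO libraries. All 4 tested skeletal muscle markers fell, with sums over 9 genes of 31.8 to 53.9 in WT and 5.77 to 7.20 in LRP1 eKO libraries. Of these markers, Atp2a1 was below 1 in every LRP1 eKO library and passed the filter through WT libraries alone. Trf alone made up 1358 to 1451 of the hepatocyte sum in WT and 581 to 862 in LRP1 eKO libraries. The other 9 genes summed to 156 to 179 and 155 to 172, which overlap, but this sum mixes opposite changes. In it, Ass1 rose from a mean of 91.0 to 138. Alb, Apoa1, Serpina1a and Fgb fell to 29.6%, 42.4%, 17.5% and 26.9% of WT, each without overlap of the groups. The part of hepatocyte and muscle genes in the lower signals of Id1, Id3 and Bmp4 was not tested. The 10 lymphocyte markers summed to at most 2.31 in any library, with Cd8a and Gzma at 0 throughout. Of 3 tested cholangiocyte markers 1, Krt7, fell, and the 6 genes of the list summed to 301 to 356 in WT and 233 to 696 in LRP1 eKO libraries. Most of the spread in LRP1 eKO came from Spp1, at 522, 91.6, 547 and 351 in replicates 1 to 4, which was not called. Epcam and Cftr were below 1 in every library. In the liver sinusoidal list, 2 of 6 tested genes were higher. Of these, Oit3 was below 1 in every WT library and passed the filter through LRP1 eKO libraries alone. The list summed to 39.3 to 42.7 in WT and 40.8 to 65.1 in LRP1 eKO libraries. Gata4 alone, which was not called, made up 27.7 to 30.8 of this sum over all libraries. The list of large vessel and capillary ECs, with 2 of 4 higher, summed to 138 to 169.7 in WT and 178 to 200.1 in LRP1 eKO libraries. In the stellate and fibroblast list, 1 of 6 tested genes fell.

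The sequence just upstream of the RefSeq transcription start is shown for Bmp4 and Id4, both lower in LRP1 eKO libraries, whose windows of 250 bases overlap no annotated exon of the gene. RefSeq (GRCm38.p6) gave such a window for 7 of the 10 genes, and those of Id1, Bmp2 and Acvrl1 were not printed. GGCGCC, a GC-rich sequence bound by BMP-activated Smads that reads the same on both strands, was searched. A core of Smad-binding elements, CAGAC, was searched on both strands, where its reverse complement reads GTCTG. Matches of one motif can share at most 1 base with those of the other. Matches are in capitals, and the sequences run 5′ to 3′ on the strand of the gene, with Bmp4 at chr14:46390670-46390919 on the minus strand and Id4 at chr13:48260866-48261115 on the plus strand.
Bmp4: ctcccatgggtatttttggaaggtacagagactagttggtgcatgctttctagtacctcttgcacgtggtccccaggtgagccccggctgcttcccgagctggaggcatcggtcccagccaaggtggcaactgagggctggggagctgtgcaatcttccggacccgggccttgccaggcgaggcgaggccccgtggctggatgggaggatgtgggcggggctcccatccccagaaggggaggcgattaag
Id4: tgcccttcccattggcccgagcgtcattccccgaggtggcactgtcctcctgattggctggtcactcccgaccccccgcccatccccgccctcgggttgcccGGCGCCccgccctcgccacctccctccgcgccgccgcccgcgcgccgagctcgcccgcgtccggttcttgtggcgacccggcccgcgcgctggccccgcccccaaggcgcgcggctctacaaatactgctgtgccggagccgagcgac
The window of Bmp4 held no match, and that of Id4 held 1 GGCGCC, 148 bases before the RefSeq start site, which itself lies upstream of the GENCODE start of Id4 given above. The windows of Bmp6, Bmpr2, Id2 and Id3 each overlap an annotated GENCODE exon and lie inside the gene bounds given above, so that their matches are not upstream of the whole gene. Shorter stretches show these matches, with Id3 at chr4:136143645-136143668 and chr4:136143744-136143767, Id2 at chr12:25096309-25096332 on the minus strand, Bmpr2 at chr1:59764165-59764188 and Bmp6 at chr13:38345587-38345610.
Id3, first stretch: tcctcggcgtCAGACcagcctaag
Id3, second stretch: acccttggcgGTCTGttttgaata
Id2: ggccccctgGGCGCCcagcgcaca
Bmpr2: cggcggccgGGCGCCgctgcctgc
Bmp6: cgcacgtgtgCAGACtgcgagtga
GGCGCC was present in 3 of the 7 windows, those of Bmpr2, Id2 and Id4, and in 9.59% of 32851 RefSeq windows. CAGAC, on either strand, was present in 2 of the 7, those of Bmp6 and Id3, and in 42.2% of all windows. Genes with a GGCGCC match included a gene that rose, a gene that fell and a gene without a call.

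For the rest of the pathway, 64 other genes were grouped by role, and 43 of them passed the filter. Of these, 14 rose and 7 fell, or 48.8%, near the 41.2% of all genes tested, and none changed 2-fold in signal + 1. By mean signal before adding 1, Grem1 and Bmp10 in LRP1 eKO libraries were at 273% and 261% of WT. With a pseudocount of 0.1, the log2 fold change of Bmp10 was 1.34. The median log2 fold change of the 43 genes was 0.052. Without WT replicate 4, 13 rose and 12 fell, so that the number of lower genes depended on this library. Of the 21 genes below the filter, 4 rose and none fell in the fit without it, where 2159 of all 17959 genes were higher and 2742 (15.3%) lower, and Hamp2 was listed at 0 in every library.

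Of 12 tested extracellular antagonists and modulators, 6 were higher and 2 were lower, where 19.0% and 22.2% of all genes tested were. Grem1, which encodes the BMP antagonist gremlin-1, was at 1.20, 1.35, 1.38 and 1.21 in WT and at 2.97, 4.16, 3.18 and 3.72 in LRP1 eKO replicates 1 to 4. All LRP1 eKO values were more than 1.5 signal units above all WT values, and the log2 fold change was 0.97 (SE 0.087, adjusted p = 2.8e-05). Fstl3, a follistatin-like binder of activins, rose from 15.1 ± 0.925 to 21.8 ± 0.596, and Bmp1, a protease that cleaves procollagen and the antagonist chordin, rose from 55.3 ± 0.895 to 72.6 ± 6.61 (mean ± SD, 4 libraries each). Nbl1, a secreted BMP antagonist of the DAN family, fell from 82.3 ± 3.20 to 65.0 ± 4.10 (mean ± SD, 4 libraries each), so that antagonists moved in both directions. The most abundant gene of the list by signal, Fstl1, rose with a log2 fold change of 0.24 (adjusted p = 0.017), which was 0.11 with the endothelial covariate (adjusted p = 0.14). Bmper, named after its values were seen because of its link to LRP1, had signals of 57.7 to 63.0 in WT and 51.1 to 65.1 in LRP1 eKO libraries, with a log2 fold change of -0.015 (95% interval -0.18 to 0.15).

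Among other receptors and coreceptors, 1 of 8 tested genes rose and 2 fell, where 19.0% and 22.2% of all genes tested did. The gene that rose was Eng, the coreceptor endoglin of BMP9 and BMP10 and itself a pan-endothelial marker. Its signals were 12.8, 13.8, 12.2 and 11.0 in WT and 27.5, 19.7, 27.5 and 22.5 in LRP1 eKO replicates 1 to 4. The lowest LRP1 eKO value, in replicate 2, was still above every WT value, and the log2 fold change was 0.91 (SE 0.11, adjusted p = 1.9e-04). The repulsive guidance molecules Rgma and Rgmb, which act as BMP coreceptors, fell by 0.39 and 0.24 on the log2 scale (adjusted p = 0.0019 and 0.010). Bmpr1a, a type I receptor, had a log2 fold change of -0.098 (adjusted p = 0.59), and of -0.26 without WT replicate 4 (adjusted p = 0.012). Of 3 other ligands tested, 2 rose, against the same 19.0% of all genes. Bmp10 rose from 0.992 ± 0.327 to 2.59 ± 0.285 (mean ± SD, 4 libraries each), and passed the filter mainly through the LRP1 eKO libraries, with 2 WT and 4 LRP1 eKO libraries at a signal of at least 1. Gdf6 rose by 0.17 on the log2 scale (adjusted p = 0.032), a call that was lost when any library other than WT replicate 2 or LRP1 eKO replicate 2 was left out, with adjusted p between 0.051 and 0.092. Its log2 fold change was 0.11 with the macrophage covariate (adjusted p = 0.091) and 0.070 with the endothelial covariate (adjusted p = 0.28).

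Inside the cell, 0 of the 4 tested Smad1, Smad5, Smad9 and Smad4 passed the threshold in limma, which 41.2% of all genes tested did. In that fit 2 of the 4, Smad1 and Smad4, had an unadjusted p below 0.05. Smad4 had a log2 fold change of 0.22 (adjusted p = 0.084), which was 0.30 without WT replicate 1 (adjusted p = 0.023) and 0.14 without WT replicate 4 (adjusted p = 0.17). Of 8 membrane and intracellular inhibitors, 3 rose and 1 fell, where 19.0% and 22.2% of all genes tested did. Smurf1, a ubiquitin ligase that marks Smads and receptors for degradation, rose from 8.82 ± 0.0628 to 13.2 ± 0.663 (mean ± SD, 4 libraries each), a log2 fold change of 0.53 (adjusted p = 3.9e-05). Smurf2, of the same family, rose by 0.45 (adjusted p = 0.018), or by 0.30 without WT replicate 4, and was not called with the endothelial covariate (0.33, adjusted p = 0.14). Ppm1a, a phosphatase of Smads, rose by 0.14 (adjusted p = 0.035), which did not pass when any library other than WT replicate 3 or 4 was left out. Bambi, a decoy receptor, fell from 1.44 ± 0.283 to 0.824 ± 0.0513 (mean ± SD, 4 libraries each), and it passed the filter through WT libraries alone. Fkbp1a, the gene of this list with the highest signal, differed by 0.014 on the log2 scale (adjusted p = 0.80).

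Of the 5 other BMP targets tested, 1 rose and 1 fell, where 19.0% and 22.2% of all genes tested did. Atoh8, a transcription factor gene induced by BMP signaling in ECs and liver, fell from 20.2 ± 0.371 to 16.1 ± 0.0744 (mean ± SD, 4 libraries each), with a log2 fold change of -0.30 (adjusted p = 3.5e-04). Runx2, a regulator of osteoblast genes, rose from 2.57 ± 0.405 to 4.16 ± 0.142 (mean ± SD, 4 libraries each), a log2 fold change of 0.54 (adjusted p = 7.2e-04). The E proteins held back by Id proteins did not move together. Tcf3 fell by 0.25 on the log2 scale (adjusted p = 0.0041), whereas Tcf4 rose by 0.35 (adjusted p = 0.046), and the latter call was lost on leaving out any library but WT replicates 3 and 4 and LRP1 eKO replicate 2, with adjusted p between 0.054 and 0.12. Without WT replicate 4, the log2 fold change of Tcf4 was 0.22 (adjusted p = 0.040).

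**Figure D3:**
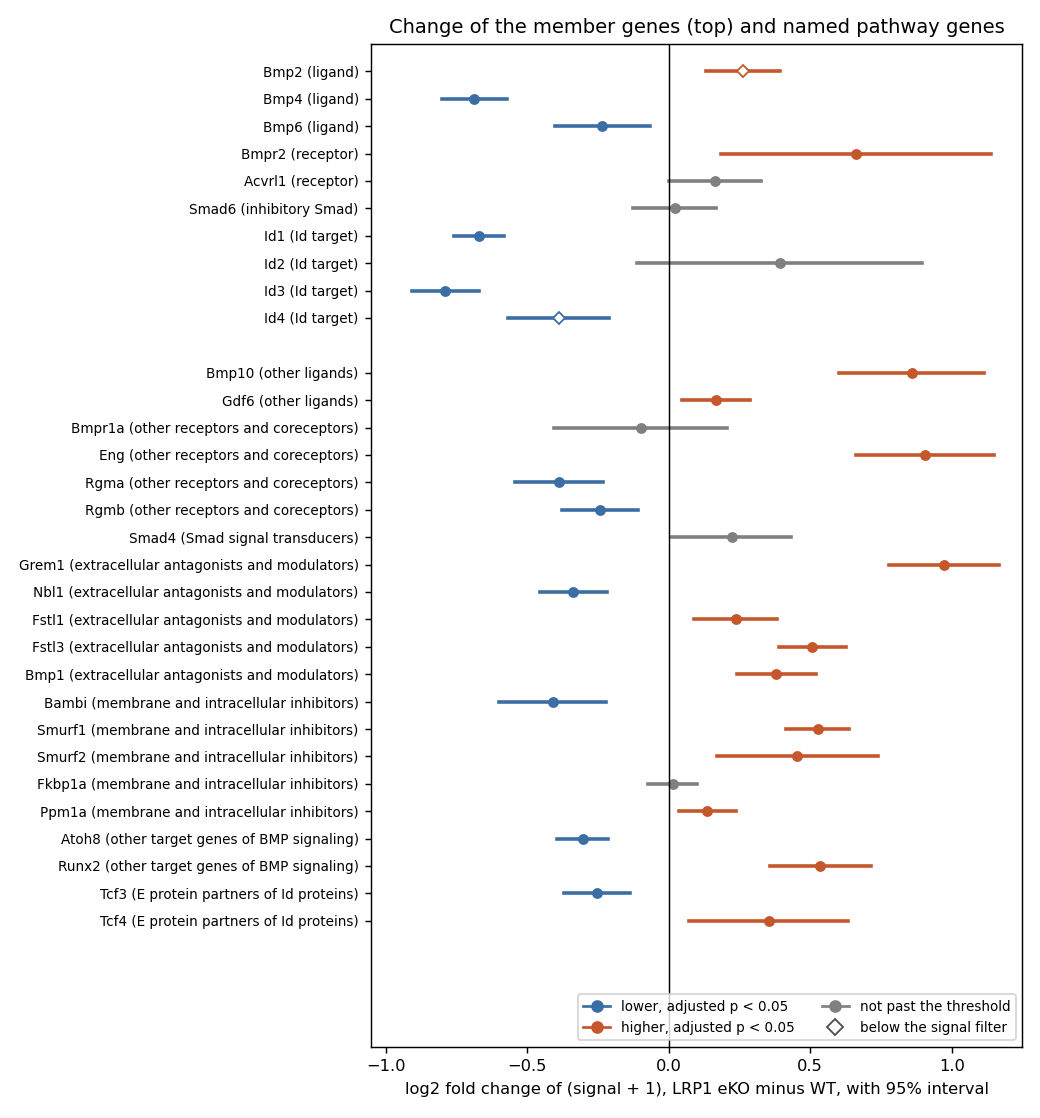
Log2 fold change of (signal + 1), LRP1 eKO minus WT, of the 10 genes (top) and of the other pathway genes named in the text, with 95% intervals from limma. Blue marks genes that were lower and orange genes that were higher at an adjusted p below 0.05, grey marks the others, and open diamonds mark genes below the signal filter; Id1, Id3 and Bmp4 lie near -0.7 and Eng, Grem1 and Bmp10 near 0.9.

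The genes whose signals were most like those of 4 of the genes were listed over the 8 libraries, as a description, since libraries share a genotype. For Id1 these were Kifc1, Rbp4 and Fam84a, with Pearson correlations of 0.998, 0.998 and 0.997 of log2(signal + 1). For Id2 they were Tspan14, Pf4 and Igsf6 (0.994, 0.993 and 0.992), and for Bmp2 they were Flt4, Tmem106a and Vav3 (0.975, 0.975 and 0.974). Bmp6 was most like Begain, Oxct1 and Prmt5 (0.960, 0.953 and 0.936).

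Lrp1 checks the genotype labels, not the labelled cell type. Its signal was 56.2 to 85.1 in WT and 2.16 to 6.01 in LRP1 eKO libraries. Its mean in LRP1 eKO libraries was 6.74% of that in WT, and all LRP1 eKO values were below all WT values. These are values of a whole preparation in which Cdh5 was at 1.26 to 4.99 and Col1a2 at 616 to 889. Which of its cells lost Lrp1 was not tested.

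**Figure D4:**
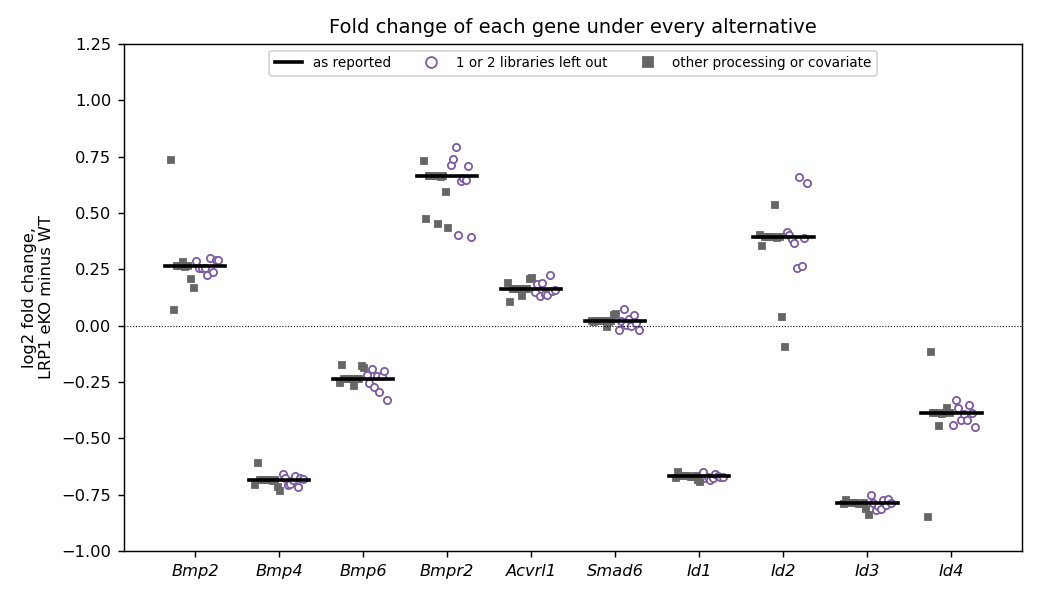
Log2 fold change (LRP1 eKO minus WT) of each of the 10 genes as reported (black line), with 1 or 2 libraries left out (open circles) and under other processing choices or covariates (squares). Id1, Id3 and Bmp4 stay between -0.84 and -0.61, whereas Bmpr2 and Id2 spread over a wide range and Bmp2 and Id4 depend on the pseudocount.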

How the data were processed

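Liver EC mRNA-seq of 4 WT and 4 LRP1 eKO samples was analysed. The authors deposited 1 table with a quantile-normalized signal per gene and library. The labels name TopHat2 and Cufflinks on mm10, while the methods of the study name trimGalore, STAR and featureCounts. Neither describes this table, and the unit before normalization is not given in the sources used here. Signals of a library summed to 484445 to 485947, so that depth is unknown and a global shift would be removed. Each library is 1 labelled sample.

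Signals were converted to log2(signal + 1) and compared between genotypes by limma 3.58.1 (R 4.3.3), using a trended variance and no covariate. The methods of the study describe a count model with a 2-fold threshold, which the deposited signal does not allow. Genes needed 4 or more libraries with a signal of 1 or more, and calls were made at an adjusted p below 0.05. Data were simulated for 11391 genes with this comparison. Of 200 genes with a simulated log2 change of 1, 195 were recovered, with 12 false calls. Of 200 with one of 0.5, 151 were recovered, with 10 false calls. Values were drawn independently for each gene, without deviations shared by the genes of a library. These counts therefore need not hold for the real libraries. The 10 genes and all lists were chosen with earlier results of these data known. Pathway genes named were the called genes of each role, up to 5 by adjusted p, and the gene with the highest signal; 1 of these genes is not reported here. Acta1 was not found in the table, and Adgre1 was matched by an older symbol. Positions come from GENCODE M21 (GRCm38). Figures were drawn with matplotlib 3.10.9. Alternatives were other pseudocounts, filters and moderation, array weights, centring, a replicate block, 2 covariates and left-out libraries. Each covariate was the mean log2(signal + 1) of the macrophage or pan-endothelial genes that passed the filter, the latter without Eng.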

Additional observations from a re-analysis of the deposited data

Results flagged for a closer look

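Of 66 groups of 4 libraries, over 33 named genes, 6 had a single library beyond Dixon's critical value. About 3.3 such groups arise by chance. Values in parentheses are the gap to the nearest library divided by the whole range. WT replicate 1 was highest for Bmp2 (0.959), at a signal of 0.351 against 0.258 to 0.262. LRP1 eKO replicate 4 was lowest for Bmpr2 (0.838). WT replicate 4 was lowest for Smurf2 (0.949) and highest for Bambi (0.881) and Tcf3 (0.906). LRP1 eKO replicate 3 was highest for Fkbp1a (0.877).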

How the results depend on the processing

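Id1, Id3, Bmp4 and Id4 kept their direction and their call under all alternatives run. For Bmp6 the log2 fold change and adjusted p were -0.24 and 0.052 with no filter, -0.18 and 0.098 with the macrophage covariate and -0.19 and 0.17 with the endothelial covariate, and -0.29 to -0.19 with 1 library left out. For Bmpr2 these were 0.66 and 0.072, 0.59 and 0.082, and 0.43 and 0.23, and 0.40 to 0.79 with 1 library left out. Bmp2 lost its call with the endothelial covariate (0.17, adjusted p = 0.054) and kept it with the macrophage covariate (0.21, adjusted p = 0.022). Id2 gained a call with array weights (0.53) and without both WT replicate 4 and LRP1 eKO replicate 2 (0.63), an alternative chosen after seeing the data, and changed sign with the endothelial covariate (-0.094); with 1 library left out it was 0.25 to 0.66. Acvrl1 ranged from 0.13 to 0.22 and Smad6 from -0.018 to 0.075 with 1 library left out. Smad6 was -0.0041 with array weights and -0.020 without both libraries, Fkbp1a was -0.00094 with array weights, and Bmper was 0.021 with array weights, 0.038 without both libraries and -0.057 to 0.057 with 1 left out. None of these 3 genes was called. The cause of these shifts was not tested.

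The number of the 8 tested genes called higher was 0 with no filter and with either covariate, 2 with array weights and without both libraries, and 0 to 1 with 1 library left out. Requiring a 2-fold change of signal + 1 left 0 of these genes, 0 other pathway genes, and 99 higher and 90 lower among all genes. Called pathway genes were 9 higher with the endothelial covariate, 14 lower with array weights and 13 lower without both libraries, and 11 to 13 higher and 6 to 12 lower with 1 left out. Whether the replicate numbers pair the libraries is not known. Deviations of WT and LRP1 eKO libraries with the same number correlated from -0.13 to 0.18. Those with different numbers correlated from -0.26 to 0.21. So few libraries cannot exclude a pairing. With the replicate block, the call of each of the 10 genes was kept, Id1 at an adjusted p of 9.9e-05, while Gdf6 and Ppm1a lost theirs and Smad4 gained one. Depth is unknown, and Bmp2 and Id4 had the lowest signals of the 10 genes. Among pathway genes, Ppm1a and Tcf4 lost their calls with either covariate, and Tcf4 also with no filter.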
